A study of Mus musculus with 6 samples.

Results

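The genes described here are 34 genes of fibroblasts and of the extracellular matrix other than collagens, taken by symbol from a table of 35275 genes measured by bulk RNA sequencing of whole mouse tongue. All 34 symbols were found, each in 1 row. The study compared 3 libraries from tongues of mice lacking Aim2 (Aim2-/-, called Aim2 KO) with 3 from wild type mice. Both genotypes received 100 µg/ml of 4NQO (4-nitroquinoline 1-oxide), a DNA-damaging carcinogen that produces squamous lesions of the mouth, in their drinking water over 20 weeks, so no tongue without carcinogen is part of the comparison. The protein made from Aim2 binds DNA in the cytosol and starts an inflammasome. The sources used here give no strain, sex or age, and do not say how the allele was made. Nothing in the labels states that each library came from a separate animal, so a p-value covers the spread between libraries, which may be technical. Levels are FPKM (fragments scaled to gene length and library size), which can be compared between genes. In each set of 3 values below, the libraries stand in the order of their replicate numbers.

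Fibroblasts build and maintain the connective tissue beneath the oral epithelium and between the muscle fibres of the tongue. They secrete collagens together with proteins that space, crosslink and decorate the fibrils: small leucine-rich proteoglycans, fibrillins and fibulins of elastic fibres, lysyl oxidases, and adhesive glycoproteins such as fibronectin. In tissue repair and in the stroma of carcinomas some fibroblasts become contractile myofibroblasts, which express smooth muscle actin and deposit periostin and tenascin.

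The libraries held 21959204 to 25369400 reads, as recovered from the steps of the FPKM values. Aim2, the targeted gene, had 0.0879 ± 0.0630 FPKM in the libraries labelled Aim2 KO against 0.327 ± 0.112 FPKM in wild type (SD, n = 3 each). These rest on 3, 4 and 10 reads against 14, 25 and 30 reads, which did not overlap. Genes of keratinocytes and skeletal muscle were the most abundant of the lists examined. The summed level of 18 keratinocyte genes was 39401 to 53779 FPKM over the Aim2 KO libraries against 41652 to 50683 FPKM over the wild type ones, and that of 20 skeletal muscle genes was 11609 to 22810.3 FPKM over the Aim2 KO libraries against 19314 to 23776 FPKM over the wild type ones. Defining fibroblast genes were detected in every library, with Pdgfra at 0.871 to 3.27 FPKM, Dcn at 104 to 216 FPKM and Dpt at 8.76 to 35.9 FPKM. Several members are also expressed by other cells of the tongue. Acta2 and Tagln belong to vascular smooth muscle, Pdgfrb to pericytes, Cd34 to endothelium, Thy1 to T cells and nerves, Vim to most non-epithelial cells, and Ly6a to endothelium and lymphocytes.

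No member passed the test between the genotypes, and the levels differed most between single libraries. Of the 34 members, 29 had their lowest level in Aim2 KO replicate 1 and 23 had their highest in Aim2 KO replicate 2. Among the 32 members with a mean of at least 1 FPKM, the minimum for testing, 27 (84.4%) were lowest in Aim2 KO replicate 1, where 34.3% of the 12144 genes tested were, and 21 were highest in Aim2 KO replicate 2, where 22.8% of all tested genes were. Their mean log2(FPKM + 1) was 2.80, 4.04 and 3.83 for replicates 1, 2 and 3 of Aim2 KO and 3.27, 3.83 and 3.57 for those of wild type. Aim2 KO thus held both the lowest library and the highest, and its replicate 3 equalled wild type replicate 2. Of all reads, the 34 members took 0.130%, 0.267%, 0.242% in Aim2 KO against 0.163%, 0.221%, 0.191% in wild type. In bulk tissue, fewer fibroblasts and less RNA per fibroblast cannot be told apart.

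**Figure D1:**
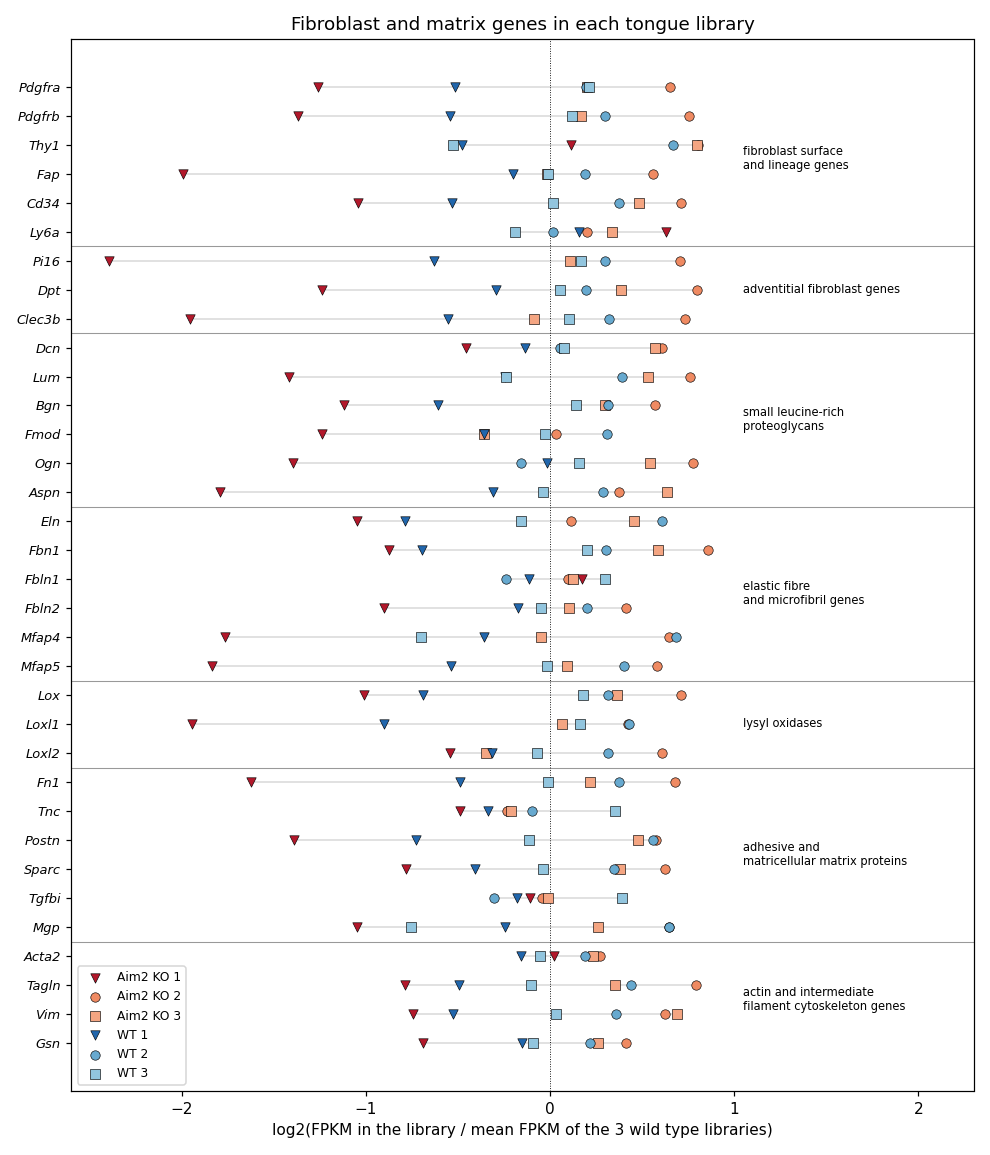
Level of each of the 34 members in each of the 6 libraries, as log2 of its FPKM over the mean of the 3 wild type libraries, grouped by role, with Aim2 KO in red shades and wild type in blue shades, and replicates 1, 2 and 3 as triangles, circles and squares. The dark red triangle (Aim2 KO replicate 1) lies at the left end for 29 members, and Thy1, Ly6a, Fbln1, Tgfbi and Acta2 are the exceptions.

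In reads, 30 of 34 members had a rate in Aim2 KO replicate 1 below that of the pooled wild type libraries, with an exact 95% binomial interval of the ratio under 1, which covers counting error only and compares libraries, not genotypes. Among the 32 tested members there were 28, against 36.6% of all tested genes. One of them, Tgfbi, had a ratio near 1, at 0.924 (0.877 to 0.972). The rate was higher for Ly6a, at 1.55 (1.49 to 1.61), and Fbln1, at 1.12 (1.03 to 1.23), with intervals over 1, as for 29.1% of all tested genes. For Thy1 and Acta2 the interval included 1. For Fap, the member with the fewest reads there (18 reads), the ratio was 0.251 (interval 0.146 to 0.406). The median ratio of that library to the wild type mean was 0.472 over the 32 tested members and 0.977 over all tested genes. It was at or under 0.5 for 20 tested members (62.5%), against 5.73% of all tested genes. The mean of the other two Aim2 KO libraries was above the wild type mean, with a median ratio of 1.36 over the members and 1.05 over all tested genes. Within Aim2 KO the median SD of log2(FPKM + 1) was 0.75 for the members and 0.18 for all tested genes, and within wild type it was 0.34 and 0.14.

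RefSeq promoter windows (GRCm38.p6, 250 bases before to 50 after the start) were at hand for 18 of the 34 members. For Gsn and Fbn1 the RefSeq start lay 2717 and 1555 bases from the 5' end of the gene as deposited. Shown are Pi16, the member with the widest range over the libraries, Aspn and Ogn, neighbouring genes that were lowest in the same library, Postn, a gene of activated fibroblasts that followed them, and Acta2, which did not. Capitals mark TATAAA, the core of the TATA box, on either strand, where the runs on the 2 strands can overlap. Only these exact letters were searched for. Variants of the box, such as the tatataa in the Acta2 window, are not marked, so no match does not mean no TATA box.
Pi16, chr17:29318632-29318931, plus strand, no match: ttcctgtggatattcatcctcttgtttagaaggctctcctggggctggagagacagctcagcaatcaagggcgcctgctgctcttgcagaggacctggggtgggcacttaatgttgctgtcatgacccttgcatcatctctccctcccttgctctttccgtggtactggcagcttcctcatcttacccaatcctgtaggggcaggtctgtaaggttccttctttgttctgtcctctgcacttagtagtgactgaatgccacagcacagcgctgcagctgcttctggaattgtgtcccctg
Aspn, chr13:49544193-49544492, plus strand, a match on each strand: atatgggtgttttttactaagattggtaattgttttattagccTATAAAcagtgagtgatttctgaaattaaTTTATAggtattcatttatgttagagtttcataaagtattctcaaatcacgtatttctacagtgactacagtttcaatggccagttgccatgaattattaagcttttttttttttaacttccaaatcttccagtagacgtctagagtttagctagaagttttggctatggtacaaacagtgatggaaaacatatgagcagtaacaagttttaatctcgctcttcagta
Ogn, chr13:49607765-49608064, plus strand, overlapping matches on both strands: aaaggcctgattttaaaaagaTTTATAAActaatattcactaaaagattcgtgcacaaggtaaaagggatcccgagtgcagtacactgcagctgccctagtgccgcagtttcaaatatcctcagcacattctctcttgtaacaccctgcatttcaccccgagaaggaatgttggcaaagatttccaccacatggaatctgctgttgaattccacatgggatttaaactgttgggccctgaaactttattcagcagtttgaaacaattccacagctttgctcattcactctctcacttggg
Postn, chr3:54360857-54361156, plus strand, a match 26 bases before the start: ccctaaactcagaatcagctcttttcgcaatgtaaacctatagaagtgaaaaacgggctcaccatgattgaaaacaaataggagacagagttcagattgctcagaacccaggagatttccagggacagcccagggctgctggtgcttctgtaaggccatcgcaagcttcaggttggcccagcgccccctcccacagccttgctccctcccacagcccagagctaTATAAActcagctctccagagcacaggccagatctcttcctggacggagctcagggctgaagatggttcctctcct
Acta2, chr19:34255324-34255623, minus strand, no match: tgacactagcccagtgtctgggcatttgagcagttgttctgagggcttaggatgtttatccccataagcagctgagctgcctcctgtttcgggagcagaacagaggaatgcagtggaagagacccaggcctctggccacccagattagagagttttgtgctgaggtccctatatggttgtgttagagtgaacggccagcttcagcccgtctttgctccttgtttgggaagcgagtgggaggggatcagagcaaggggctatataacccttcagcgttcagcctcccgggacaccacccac
TATAAA stood in 6 of the 18 member windows (33.3%), namely Dpt, Ogn, Aspn, Tnc, Postn and Vim. It stood in 13.6% of all 32851 RefSeq promoter windows of the same length. In Postn and Vim the match began 26 and 32 bases before the start, in Ogn, Aspn and Tnc it began 227, 207 and 126 bases before it, and in Dpt 12 bases after it. The 6 do not share 1 behaviour: Aspn, Ogn, Postn and Dpt were among the members with a wide range over the libraries, and Tnc was among the flattest.

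Of the genes of adventitial fibroblasts, the cells around vessels that are regarded as a reservoir of other fibroblasts, Pi16 and Clec3b had the widest ranges of all 34 members. Pi16, a secreted peptidase inhibitor that defines these cells, was at 2.00, 17.1 and 11.4 FPKM in Aim2 KO against 6.78, 12.9 and 11.8 FPKM in wild type. Its highest library was 8.58-fold above its lowest, and Aim2 KO replicate 1 stood apart at 0.190 of the wild type mean. Clec3b (tetranectin, a plasminogen-binding lectin) was at 4.39, 28.3 and 16.1 FPKM in Aim2 KO against 11.6, 21.3 and 18.3 FPKM in wild type, again with replicate 1 of Aim2 KO far below the rest. Dpt (dermatopontin, a matrix protein that binds decorin) was at 8.76, 35.9 and 27.0 FPKM and 16.9, 23.7 and 21.4 FPKM in the same order. For Dpt both other Aim2 KO libraries were above all 3 wild type libraries, so the Aim2 KO libraries enclosed the wild type ones. Of all genes tested without Aim2 KO replicate 1, 17.8% had both other Aim2 KO libraries above all wild type ones. Subtracting the wild type mean of log2(FPKM + 1) from that of Aim2 KO gave log2 differences of -0.35 for Pi16 (95% interval -1.77 to 1.07), -0.33 for Clec3b (-1.63 to 0.96) and 0.0079 for Dpt (-1.02 to 1.04), all with a limma adjusted p of 0.9998.

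**Figure D2:**
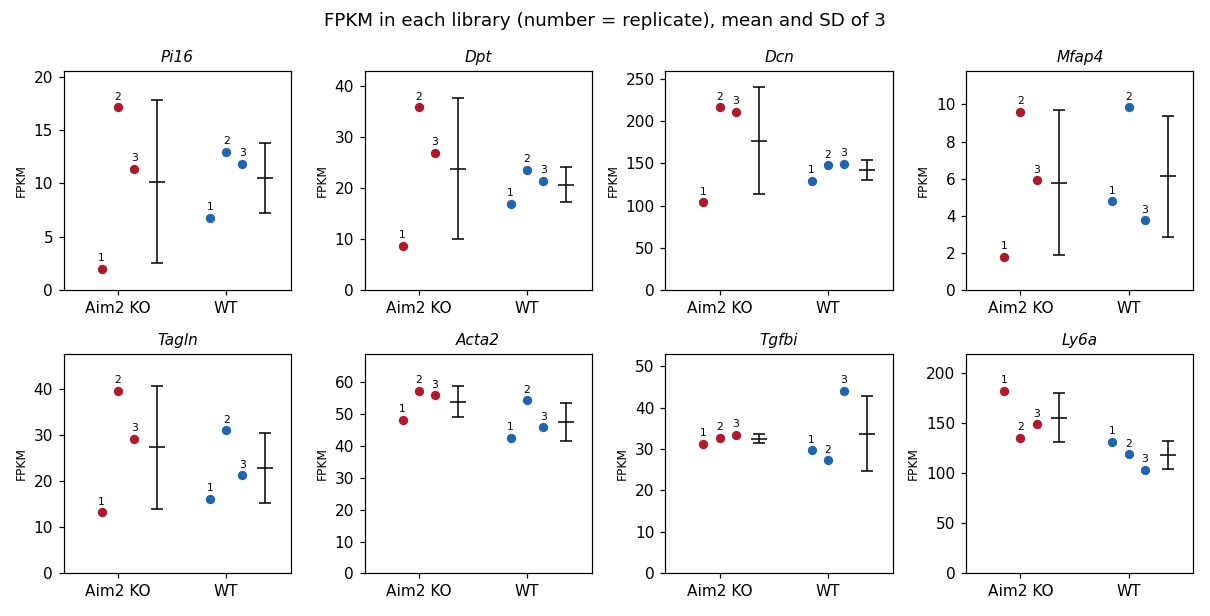
FPKM of 8 members in each library, with replicate numbers above the points and the mean and SD of 3 libraries beside them, for Aim2 KO and wild type. Pi16, Dpt, Dcn, Mfap4 and Tagln are lowest in Aim2 KO replicate 1. Acta2 and Tgfbi vary little in Aim2 KO, and Ly6a is highest in Aim2 KO replicate 1.

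The small leucine-rich proteoglycans, which bind collagen and govern fibril diameter, were lowest in Aim2 KO replicate 1 for all 6 genes. Dcn (decorin), the most abundant of them, was at 104, 216 and 211 FPKM in Aim2 KO against 129, 148 and 149.7 FPKM in wild type, or 177 ± 63.5 against 142 ± 11.3 FPKM (SD, n = 3 each). Replicates 2 and 3 of Aim2 KO were both above every wild type library, and its log2 difference was 0.24 (-0.40 to 0.88). Fmod (fibromodulin), in contrast, was highest in wild type replicate 2, at 0.683, 1.64 and 1.26 FPKM in Aim2 KO against 1.25, 1.99 and 1.58 FPKM in wild type (log2 difference -0.26, -0.74 to 0.21). The other four, Lum (lumican), Bgn (biglycan), Ogn (osteoglycin) and Aspn (asporin), had 0.375, 0.460, 0.380 and 0.288 of their wild type mean in Aim2 KO replicate 1. Their levels over the 6 libraries were 5.26 to 23.7 FPKM for Lum, 8.67 to 28.0 FPKM for Bgn, 1.29 to 5.83 FPKM for Ogn and 2.27 to 12.2 FPKM for Aspn. Lum, Ogn and Aspn also had both other Aim2 KO libraries above all wild type ones, as 17.8% of all genes did. Dcn and Lum lie 47.3 kb apart on chromosome 10, and Ogn and Aspn 40.5 kb apart on chromosome 13. Ogn and Aspn lie within the span of Cenpp on the opposite strand, which had 2.86, 2.25 and 2.44 FPKM in Aim2 KO against 2.25, 1.497 and 1.83 FPKM in wild type, and without strand in the counting, on which the sources are silent, reads of overlapping genes cannot be told apart.

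Of the elastic fibre genes, Fbln2 (fibulin 2), the most abundant, was at 4.42, 10.99 and 8.88 FPKM in Aim2 KO against 7.32, 9.49 and 7.97 FPKM in wild type. Its range was 2.49-fold, with Aim2 KO replicate 1 lowest and replicate 2 highest. Mfap4, a microfibril-associated glycoprotein, was at 1.80, 9.61 and 5.92 FPKM and 4.78, 9.85 and 3.76 FPKM, where wild type replicate 2 matched the highest Aim2 KO library and wild type replicate 3 was the second lowest. Its gene overlaps Mapk7 on the opposite strand, at 4.23, 3.34 and 3.85 FPKM and 3.91, 3.86 and 3.75 FPKM. Mfap5, a small microfibril glycoprotein, Eln (elastin) and Fbn1 (fibrillin 1) had 0.280, 0.484 and 0.545 of the wild type mean in Aim2 KO replicate 1, with ranges of 0.855 to 4.56 FPKM, 1.96 to 6.16 FPKM and 0.296 to 0.986 FPKM. Fbn1 was below the minimum for testing at a mean of 0.622 FPKM. Fbln1 (fibulin 1) went another way: its Aim2 KO libraries lay within 7.69 to 8.10 FPKM, inside the wild type range of 6.10 to 8.83 FPKM.

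The lysyl oxidases, copper enzymes that crosslink collagen and elastin, were low throughout. Loxl1, needed for elastic fibre renewal, was at 0.744, 3.85 and 3.00 FPKM in Aim2 KO against 1.54, 3.85 and 3.21 FPKM in wild type, so that wild type replicate 1 was also well under the other four libraries. Lox, at 0.824 to 2.71 FPKM, had 0.497 of the wild type mean in Aim2 KO replicate 1, and Loxl2, not tested at a mean of 0.523 FPKM, had 0.686 of it on 43 reads.

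The adhesive and matricellular proteins divided. Fn1 (fibronectin), Postn (periostin), Mgp (matrix Gla protein, an inhibitor of calcification) and Sparc (osteonectin) had 0.324, 0.381, 0.483 and 0.582 of the wild type mean in Aim2 KO replicate 1. Their ranges were 1.96 to 9.70 FPKM, 1.53 to 5.97 FPKM, 14.5 to 47.1 FPKM and 16.5 to 43.5 FPKM. Sparc had both other Aim2 KO libraries above all wild type ones, as 17.8% of all genes did. Mgp was low in wild type replicate 3 too. Tgfbi, a TGF-beta induced integrin ligand and the most abundant of the group, varied little over the Aim2 KO libraries, at 31.2, 32.7 and 33.5 FPKM, against 29.7, 27.3 and 44.1 FPKM in wild type. Tnc (tenascin C), a glycoprotein of wounds and tumour stroma, was at 2.34, 2.80 and 2.84 FPKM and 2.60, 3.07 and 4.19 FPKM. Both were highest in wild type replicate 3, and their log2 differences were -0.021 (-0.43 to 0.39) and -0.22 (-0.59 to 0.16).

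Among the cytoskeletal genes, the 2 markers shared by myofibroblasts and smooth muscle behaved unlike each other. Acta2 (smooth muscle alpha-actin) was at 48.3, 57.4 and 55.9 FPKM in Aim2 KO against 42.6, 54.3 and 45.9 FPKM in wild type, a range of 1.35-fold, the narrowest of the 34. Tagln (transgelin) was at 13.3, 39.8 and 29.3 FPKM and 16.3, 31.1 and 21.3 FPKM, a range of 3.00-fold in which Aim2 KO replicate 1 was lowest. Its gene overlaps Pcsk7 on the opposite strand, at 7.90, 12.6 and 11.3 FPKM and 9.94, 10.996 and 10.3 FPKM. The mean log2 level of 9 tested smooth muscle genes had the same order of libraries as Tagln, at 2.74, 3.72 and 3.50 for replicates 1, 2 and 3 of Aim2 KO and 3.04, 3.65 and 3.21 for those of wild type, and its part in the Tagln values was not tested. The summed level of that list, 12 genes with 0 of them at 0 in all libraries, was 101 to 222 FPKM over the Aim2 KO libraries against 158 to 225 FPKM over the wild type ones. Much of this sum was Ldb3, which striated muscle also expresses, at 47.6, 113 and 95.3 FPKM in Aim2 KO against 87.4, 115 and 84.5 FPKM in wild type. Without Ldb3, left out after its values were seen, the mean log2 level of the 8 other tested genes was 2.38, 3.33, 3.11 in Aim2 KO against 2.61, 3.25, 2.81 in wild type, in the same order. Vim (vimentin) was at 33.0, 85.0 and 89.0 FPKM and 38.3, 70.8 and 56.3 FPKM, and Gsn (gelsolin, an actin-severing protein), the most abundant member, at 150.4, 322 and 291 FPKM and 218, 281 and 228 FPKM. Vim and Gsn each had both other Aim2 KO libraries above all wild type ones, as 17.8% of all genes did, and replicate 1 below them.

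Among the surface and lineage genes was the 1 member whose groups did not overlap. Ly6a (Sca-1, a surface protein of stromal progenitors and endothelium that interferons induce; chromosome 15, 74994877 to 74998031) was at 183, 136 and 149 FPKM in Aim2 KO against 132, 119 and 103 FPKM in wild type, or 156 ± 24.2 against 118 ± 14.2 FPKM. Every Aim2 KO value exceeded every wild type value, and the highest was replicate 1, in which most members were lowest. This made 1 of 32 members higher without overlap, against 4.98% of all tested genes, and 0 lower, against 1.48%. Its log2 difference was 0.39 (0.036 to 0.75, limma adjusted p = 0.9998), and after median-of-ratios scaling the groups overlapped (log2 difference 0.36, -0.075 to 0.79). Leukocyte genes were higher too: of 14 listed, all 12 tested were higher in Aim2 KO, 11 without overlap and 0 past the threshold, and their summed level was 74.7 to 114 FPKM over the Aim2 KO libraries against 42.2 to 49.4 FPKM over the wild type ones, with none at 0 in all libraries. Their part in the Ly6a values was not tested. Thy1 (CD90) was at 5.24, 8.44 and 8.43 FPKM and 3.47, 7.69 and 3.36 FPKM, with the largest log2 difference of the members, 0.57 (-0.11 to 1.25), and wild type replicate 2 inside the Aim2 KO range. The receptor genes Pdgfra and Pdgfrb, which carry the growth signal of PDGF, had 0.418 and 0.386 of the wild type mean in Aim2 KO replicate 1, Cd34 had 0.485, and Fap, a surface protease of activated fibroblasts, had 0.251. They spanned 0.871 to 3.27 FPKM, 0.875 to 3.83 FPKM, 6.42 to 21.6 FPKM and 0.279 to 1.63 FPKM. Of these Cd34 alone had both other Aim2 KO libraries above all wild type ones, as 17.8% of all genes did.

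Between the genotypes, 0 of the 32 tested members passed the threshold (limma with Benjamini-Hochberg adjustment over 12144 genes, adjusted p = 0.9998 for each), where 1 gene in all, or 0.00823%, did. At an unadjusted p under 0.05 there was 1 member, Ly6a, against 1.93% of tested genes on the higher side and 0.576% on the lower. By limma's voom on the recovered reads 0 members passed, where 1 gene did, and 1 had an unadjusted p under 0.05, against 1.85% higher and 0.412% lower. In direction 16 members were higher and 16 lower, with a median log2 difference of -0.0077, against 57.2% higher and a median of 0.022 over all tested genes. After median-of-ratios scaling 12 were higher and 20 lower, against 46.8% higher over all tested genes. By role the medians ran from -0.33 for the 3 adventitial genes to 0.17 for the 4 cytoskeletal genes. The intervals do not show that the genotypes were alike: that of Pi16 reached from -1.77 to 1.07 and that of Lum from -1.11 to 1.14, on the log2 scale.

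The direction of the members changed with the libraries included. Aim2 KO replicate 1 was singled out by the members' own values, as 27 of the 32 tested were lowest in it. Leaving it out must raise the Aim2 KO mean of those members. The counts, intervals and p-values without it therefore describe the libraries and are no separate test of genotype. Without Aim2 KO replicate 1 wild type replicate 1 was the lowest library for 26 of 34 members. Among the 32 tested members it was lowest for 25 (78.1%), against 27.4% of all tested genes. In the fit without Aim2 KO replicate 1, 30 of 32 members were higher in Aim2 KO, against 66.7% of all genes then tested. The members' median log2 difference was 0.37, against 0.059. The 2 remaining Aim2 KO libraries were above all 3 wild type libraries for 13 of 32 members, namely Thy1, Cd34, Ly6a, Dpt, Dcn, Lum, Ogn, Aspn, Lox, Sparc, Acta2, Vim and Gsn, where 17.8% of genes were, and below them for 0, where 5.04% of genes were. By limma 0 members passed the threshold, where 0.115% of genes did, with a smallest adjusted p of 0.125, for Dcn. An unadjusted p under 0.05 was found for 11 members, all higher, against 5.36% of genes higher and 1.53% lower. Dcn then had a log2 difference of 0.59 (0.32 to 0.86), Lum of 0.64 (0.20 to 1.07), Vim of 0.69 (0.18 to 1.202) and Thy1 of 0.77 (0.13 to 1.41). Pi16 turned from -0.35 to 0.42 (-0.18 to 1.02). Tnc and Fmod were the 2 members still lower, at -0.15 and -0.086. Leaving out Aim2 KO replicate 2 instead gave 6 higher and 25 lower of 31 members and a median of -0.25. Without Aim2 KO replicate 3 there were 6 higher and 26 lower (median -0.17), without wild type replicate 1 there were 7 and 25 (median -0.15), without wild type replicate 2 there were 21 and 11 (median 0.11), and without wild type replicate 3 there were 17 and 15 (median 0.018). With array quality weights, which let limma give libraries unequal weight, 30 of 32 were higher, against 64.9% of all tested genes. In that fit 0 members passed, where 0.56% of genes did. An unadjusted limma p under 0.05 was found for 5 members, against 10.2% of genes higher and 3.38% lower. The weights are set from the values of these same libraries, so this fit is no separate test of genotype either.

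**Figure D3:**
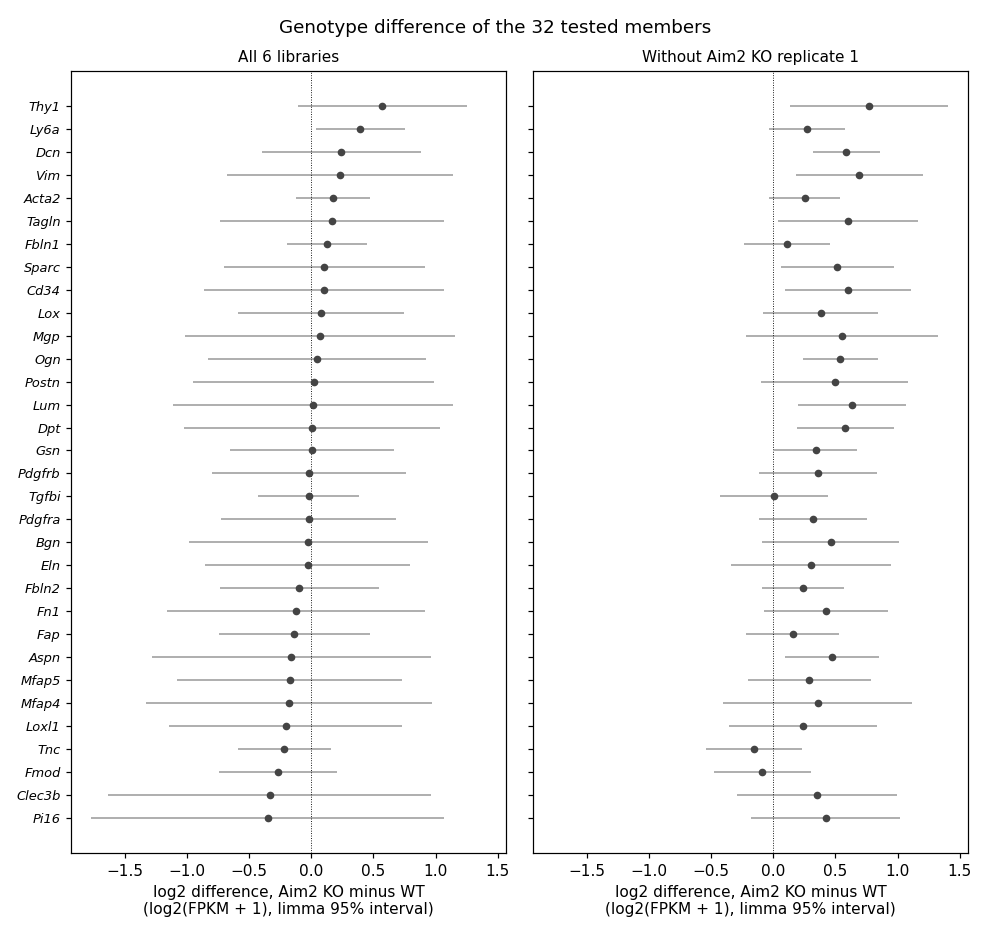
Log2 difference of the 32 tested members, Aim2 KO minus wild type on log2(FPKM + 1), with limma 95% intervals, from all 6 libraries (left) and without Aim2 KO replicate 1 (right). On the left 16 points lie on each side of 0 with wide intervals, and on the right 30 of 32 lie above 0. The library left out was the lowest for 27 of these 32 members, so their Aim2 KO mean must rise without it.

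Other matrix genes were mostly lowest in the same library, where 34.3% of all tested genes were lowest. In the list of other fibroblast genes 12 of 20 tested were higher and 8 lower in Aim2 KO, 0 passed, and 16 were lowest in Aim2 KO replicate 1. Its gene with the smallest p, Ptn (pleiotrophin), differed in order, at 15.1, 9.98 and 12.6 FPKM in Aim2 KO against 10.1, 9.83 and 9.15 FPKM in wild type. Of the other proteoglycans and leucine-rich genes 7 of 7 were lowest in that library, with 2 higher and 5 lower by genotype, among them Chad (chondroadherin) at 0.951, 1.93 and 1.14 FPKM and 1.45, 3.11 and 1.78 FPKM. Of the other matricellular genes 9 of 11 were lowest there, with 4 higher and 7 lower. Thbs1 (thrombospondin 1, an activator of latent TGF-beta), its gene with the smallest p, was not, at 3.63, 4.51 and 4.93 FPKM in Aim2 KO against 3.48, 4.21 and 3.72 FPKM in wild type, lowest in wild type replicate 1. Thbs4 (thrombospondin 4, found at muscle-tendon junctions) was at 4.29, 18.3 and 11.8 FPKM and 9.62, 23.6 and 10.9 FPKM. The other elastic fibre genes gave 6 of 8 lowest, with 4 higher and 4 lower, and Fbln5, a fibulin of elastic fibre assembly, was at 0.830, 2.11 and 1.75 FPKM and 1.24, 1.25 and 1.09 FPKM.

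Enzymes of collagen maturation and growth factor genes had smaller shares lowest there, near the 34.3% of all tested genes. Of the other crosslinking and collagen-processing genes 4 of 9 were lowest in Aim2 KO replicate 1, with 4 higher and 5 lower by genotype, and P4ha2, a prolyl hydroxylase, was at 5.52, 4.72 and 5.85 FPKM in Aim2 KO against 5.38, 7.20 and 7.06 FPKM in wild type. Of the PDGF and TGF-beta ligands and receptors 3 of 8 were, with 5 higher and 3 lower, and Tgfbr2, the ligand-binding TGF-beta receptor, was at 26.2, 28.8 and 27.2 FPKM and 21.7, 20.4 and 26.3 FPKM. Of both lists 0 genes passed. The fibrillar collagens, on which the members' products assemble, were lowest in that library for 4 of 5 tested chains and highest in Aim2 KO replicate 2 for all 5. Col1a1 was at 1.08, 5.82 and 3.76 FPKM and 1.72, 4.50 and 3.36 FPKM, Col1a2 at 2.33, 12.2 and 8.51 FPKM and 3.96, 9.18 and 6.34 FPKM and Col3a1 at 1.57, 11.3 and 7.05 FPKM and 3.25, 6.20 and 4.19 FPKM. The collagen levels were below that of Dcn in every library.

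The same library was low in other tissue components. All 15 tested endothelial genes, all 19 tested skeletal muscle genes and 7 of 8 Schwann cell genes were lowest in Aim2 KO replicate 1. So were 7 of 9 smooth muscle genes, 6 of 9 pericyte genes and 5 of 7 adipocyte genes, against 34.3% of all tested genes. In contrast, 13 of 18 keratinocyte genes were highest there, where 21.9% of all tested genes were. The mean log2 level of the endothelial genes was 1.68, 2.84 and 2.56 for replicates 1, 2 and 3 of Aim2 KO and 2.08, 2.61 and 2.29 for those of wild type, and their summed level was 38.8 to 109.9 FPKM over the Aim2 KO libraries against 56.0 to 91.5 FPKM over the wild type ones, with 0 of 15 at 0 in all libraries. That of the skeletal muscle genes was 7.86, 8.93 and 8.83 for replicates 1, 2 and 3 of Aim2 KO and 8.64, 8.97 and 8.77 for those of wild type, and that of the keratinocyte genes 9.52, 8.98 and 9.12 for replicates 1, 2 and 3 of Aim2 KO and 9.37, 9.14 and 9.41 for those of wild type. Summed levels of the other lists were 26.3 to 108 FPKM over the Aim2 KO libraries against 58.6 to 90.8 FPKM over the wild type ones for Schwann cells, 62.5 to 105 FPKM over the Aim2 KO libraries against 77.5 to 101 FPKM over the wild type ones for pericytes and 181 to 413 FPKM over the Aim2 KO libraries against 305 to 347 FPKM over the wild type ones for adipocytes, again with no gene at 0 in all libraries. With the skeletal muscle level as a covariate, which is itself lowest in that library, 29 of 32 members were higher, against 64.25% of all tested genes. The members' median log2 difference was 0.29, against 0.045 over all tested genes, and 0 members passed, where 0.132% of genes did (smallest limma adjusted p = 0.129, for Dcn). An unadjusted p under 0.05 was then found for 15 members, all higher, against 5.5% of genes higher and 1.91% lower. The part of tissue makeup in the members' values was not tested.

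**Figure D4:**
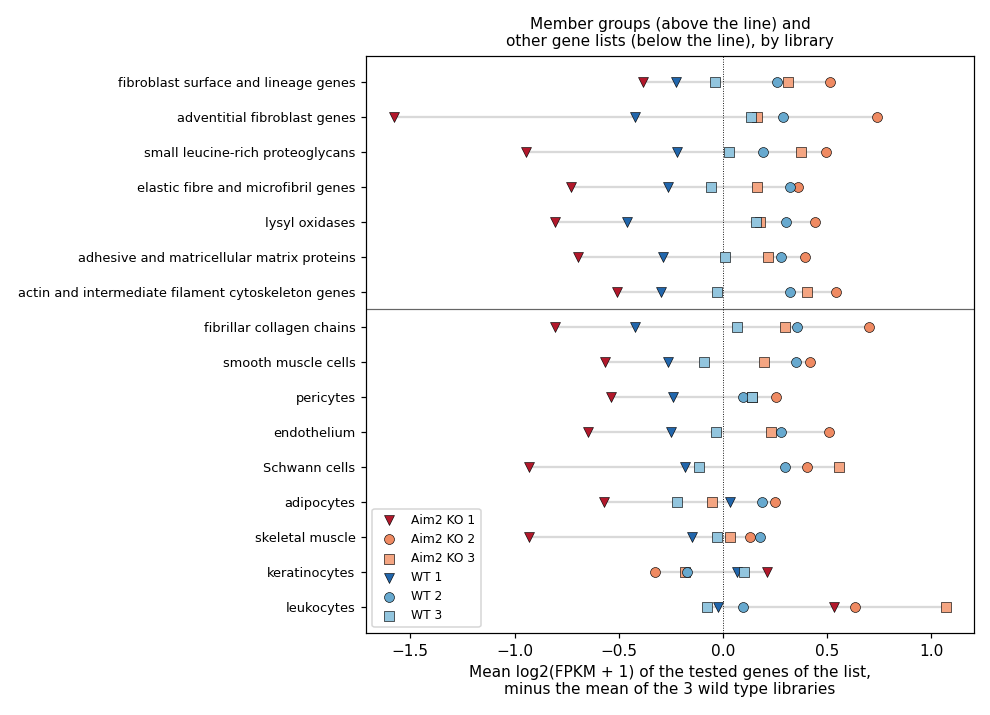
Mean log2(FPKM + 1) of the tested genes of each role group of members (above the line) and of other gene lists (below it), in each library, minus the mean of the 3 wild type libraries. Aim2 KO replicate 1 is the leftmost point in each of the 7 member groups and in the lists from collagens to skeletal muscle, is the rightmost for keratinocytes, and lies right of all wild type points for leukocytes.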

How the data were processed

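Libraries from total RNA of tongue were made by a company, per the labels' protocols. The authors deposited 1 table of FPKM values per gene and library. Its aligner, counter, build and annotation: not given in the sources used here. Among its gene IDs 34490 are in GENCODE M21 (GRCm38) and 24912 of these have identical coordinates, so positions are read as GRCm38. Of the 34 members, 15 have identical coordinates. Depths are sums of reads recovered from FPKM times gene length, where 100% of values above 0 came out whole to within 0.01 read. Libraries were grouped by the genotype in their titles. The test was limma 3.58.1 (R 4.3.3) on log2(FPKM + 1), trended on intensity and two-sided, for 12144 genes averaging 1 FPKM or more. Benjamini-Hochberg adjustment ran over all of them, with a threshold of 0.05. The test was tried on simulated data in which every gene had the same variability beyond counting error and no library stood apart. That trial therefore does not show how the test behaves for these members. With 3 against 3 an exact permutation test cannot go below p = 0.1, so none is given.

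The members, lists and tests were chosen with earlier results of these data known, and no test over the members alone was made. Values in each library are given for members without overlap, the 6 largest log2 differences in each direction and the most abundant member of each role group. Up to 3 genes of smallest p could be named from each other list. Col1a1, Col1a2 and the genes overlapping members were named outside this rule, and the promoters shown were chosen after the values were seen. Alternatives were pseudocounts of 0.1 and 0.5, a filter at 0.1 FPKM or none, median-of-ratios, TPM and quantile scaling, limma untrended, robust or with array quality weights, a skeletal muscle covariate, the replicate number as a block, voom on recovered reads and leaving out each library.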

Additional observations from a re-analysis of the deposited data

How the results depend on the processing

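The count of members passing was 0 under every alternative run. The members' median log2 difference, -0.0077 with all libraries, ran from -0.25 to 0.37 when a library was left out and was 0.29 with array quality weights and with the skeletal muscle covariate, so its sign is not fixed by these data. The count of tested members lowest in Aim2 KO replicate 1 was 27 with median-of-ratios scaling and with TPM, and 26 after quantile normalization. It was also 27 when any other library was left out, where it could not fall, since a member lowest in that library stays lowest. Over all genes the count passing was 1, and it was 0 with TPM, with the replicate block, with no filter and with the filter at 0.1 FPKM, 68 with array quality weights, 16 with the skeletal muscle covariate and 0 to 14 when a library was left out (14 without Aim2 KO replicate 1, 0 without any of the others). Members without overlap numbered 1, and 0 with median-of-ratios scaling and 2 with quantile normalization (1 higher and 1 lower). They numbered 1 to 13 when a library was left out. There were 13 without Aim2 KO replicate 1, all higher, 2 without wild type replicate 1, of which 1 was lower, and 3, all higher, without wild type replicate 2 or 3. Over all tested genes 4.98% were higher and 1.48% lower without overlap with all libraries, and 17.8% and 5.04% without Aim2 KO replicate 1. With fewer libraries, lack of overlap is easier to reach for any gene, and the shares under the other settings are not given here. The cause of the changes in these counts was not tested.

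Of 208 values of the 16 members named, under 13 alternatives that kept all libraries, 193 kept their direction. The log2 differences that turned were, with array quality weights and with the skeletal muscle covariate in this order, 0.075 and 0.20 for Clec3b, 0.12 and 0.16 for Fbln2, 0.18 and 0.16 for Loxl1, 0.088 and 0.26 for Mfap4, 0.22 and 0.24 for Pi16. Tgfbi turned to 0.054 with array quality weights. Dpt turned to -0.0038 with a pseudocount of 0.1 and -0.028 with median-of-ratios scaling, and Gsn to -0.032 with that scaling and -0.00057 by voom. When 1 library was left out, the log2 differences ran from -0.87 to 0.35 for Clec3b, -0.38 to 0.58 for Dpt, -0.33 to 0.24 for Fbln2, -0.20 to 0.34 for Gsn, -0.50 to 0.24 for Loxl1, -0.60 to 0.36 for Mfap4, -0.88 to 0.42 for Pi16, -0.16 to 0.60 for Tagln, -0.15 to 0.18 for Tgfbi and -0.012 to 0.69 for Vim. The 6 other members named kept their sign but moved in size, 0.40 to 0.90 for Thy1, 0.061 to 0.59 for Dcn, 0.10 to 0.27 for Acta2, 0.27 to 0.49 for Ly6a, -0.41 to -0.086 for Fmod and -0.33 to -0.069 for Tnc. Dcn was lowest without Aim2 KO replicate 2, Thy1 was highest without wild type replicate 2 (adjusted p = 1 by limma), and Tnc was nearest 0 without wild type replicate 3. The replicate numbers are not stated to pair animals, so they were not taken as pairs. Deviations from the group means correlated across genes at 0.351, 0.458 and 0.0302 between same-numbered libraries 1, 2 and 3. Aim2 KO replicate 3 correlated best with wild type replicate 2 (0.213). Deviations of 3 libraries sum to 0 in each group, so these correlations constrain one another and cannot decide pairing. With the replicate block 0 members passed and 2 had an unadjusted limma p under 0.05, against 1 without it. Of all 12144 tested genes, 462 had such a p with the block and 304 without it. Loxl2, Fap and Fmod had the fewest reads over the 6 libraries, with 43, 18 and 48 reads in Aim2 KO replicate 1.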
